A study of Rattus norvegicus with 32 samples.

Results

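Adenosine is made outside the cell from released ATP and is read by 4 receptors, and the genes described here are those receptors (Adora1, Adora2a, Adora2b and Adora3), the enzymes that make and remove their ligand (Entpd1, Nt5e, Ada and Adk) and a pair of receptors for ATP itself (P2rx4 and P2ry2). They were found by the gene name of each probe on a 1-colour Agilent rat array. Of 43628 different entries in the name column of either annotation version these were 10, carried by 12 of 45598 probes, and all 10 genes had a probe that passed the filter on background in both sexes. Left ventricles came from Wistar rats aged 9 to 12 weeks, collected 20 h after surgery, with 1 array per animal. In each sex there were 5 sham rats, 5 rats with cecal ligation and puncture (CLP), an operation that seeds the abdomen with gut bacteria, and 6 rats given CLP plus landiolol, a short-acting beta1-selective blocker infused from 1 h after CLP. The rats without landiolol received saline at a similar volume, no group received antibiotics, and every heart had been perfused ex vivo on a Langendorff apparatus before it was frozen.

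Extracellular ATP is cut to AMP by ectonucleotidases such as Entpd1 (CD39), and AMP is cut to adenosine by Nt5e (CD73). Adenosine then acts on receptors that lower cyclic AMP (Adora1, Adora3) or raise it (Adora2a, Adora2b), until it is taken up by transporters and deaminated by Ada or phosphorylated by Adk. In the heart, Adora1 is known for slowing the sinus rate and conduction and for opposing beta-adrenergic stimulation, Adora2a for dilating coronary vessels, and Adora3 in rodents for its part in mast cell degranulation.

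The results turn mostly on a few 60-base oligonucleotides, so the sequences that the cRNA was hybridised to are shown for Adora3, for the dimmer of the Entpd1 probes and for Nt5e, 5′ to 3′ in lower case. The positions are those the array files give in build rn4: chr2:201160545-201160604 on the plus strand for Adora3, chr1:245887283-245887342 on the plus strand for Entpd1 and chr8:93634357-93634416 on the plus strand for Nt5e. The exon was not given in the sources used here.
Adora3: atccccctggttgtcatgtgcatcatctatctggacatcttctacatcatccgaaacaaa
Entpd1: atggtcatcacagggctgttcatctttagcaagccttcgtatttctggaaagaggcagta
Nt5e: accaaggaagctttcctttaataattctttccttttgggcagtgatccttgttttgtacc
In RefSeq, the Adora3 locus overlaps that of Tmigd3, and whether RNA of that gene contributed to the Adora3 signal was not tested. Adora1 and Entpd1 each had a second probe. For these genes the probe with the higher mean over all 32 arrays stood for the gene, and the other is reported beside it. The brighter probe of each carried the gene's name in the annotation of the female files but not in that of the male files. The male files assign the brighter Entpd1 probe to another entry, LOC103689954, and which RNA it measured was not tested.

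Values are log2 intensities after quantile normalisation within a sex, and a difference between groups is a log2 change with its standard error (SE). A gene was called when its limma p-value, adjusted over all probes kept, passed an FDR of 1% against sham or 5% for CLP plus landiolol vs CLP. Spots well above background numbered 34920 to 43155 per array, no spot was saturated, and the lowest mean correlation of an array with the others of its group was 0.951. The median change over all probes kept lay between -0.02 and 0.03 in the 6 comparisons. Levels of different probes were not compared with each other, and levels were not compared between sexes, since males and females lay on different slides. The 6 cardiomyocyte markers (Myh6, Tnnt2, Tnni3, Myl2, Actn2 and Ryr2) were well above background on every array and 0 were called by limma, or had an unadjusted p under 0.05, in any comparison. In a whole ventricle, fewer cells of a type and less RNA per cell cannot be told apart.

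Of the 10 genes, Adora3 rose with CLP in males and fell back with landiolol. In CLP vs sham, 1 of 10 genes was called higher and 0 lower in males, where 7.81% of all probes were called (3.88% higher). An unadjusted p under 0.05 was found for 6 genes, against 28.8% of all probes, and 2 genes, Adora2b and Adora3, had every CLP array above every sham array, against 6.11% of all probes. In CLP plus landiolol vs CLP, 1 of 10 was called lower in males, where 1.56% of all probes were called (0.758% lower). There 4 genes had an unadjusted p under 0.05 (14.8% of all probes), 1 gene, Adora1, lay wholly above CLP (1.18%) and 1, Adora3, wholly below it (1.09%). In females no gene of the set was called by limma in CLP vs sham (3.63% of all probes called) or in CLP plus landiolol vs CLP (0.0945%), and 4 and 2 genes had an unadjusted p under 0.05, which 23.1% and 9.34% of all probes had. In CLP plus landiolol vs sham, 0 of 10 genes were called in either sex, where 4.15% of all probes in males and 5.25% in females were called, and 3 genes in each sex had an unadjusted p under 0.05 (24.2% and 26.7% of all probes). The median change of the 10 genes with CLP was 0.54 in males and 0.24 in females.

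**Figure D1:**
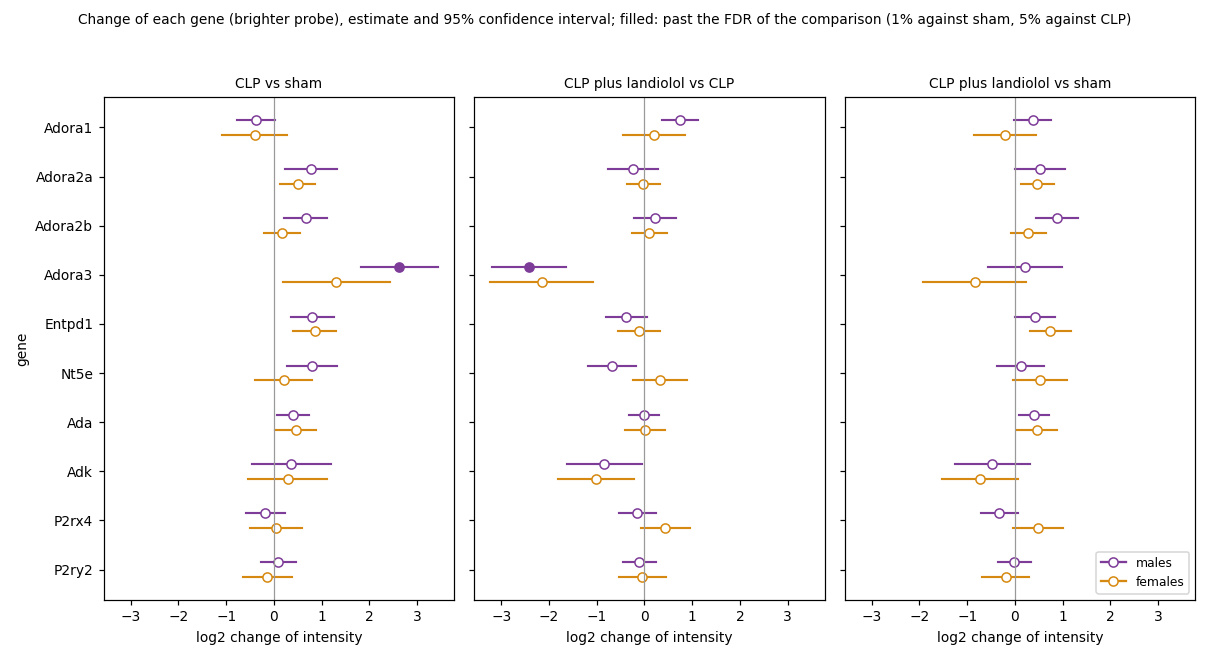
Log2 change of intensity (x axis) of each of the 10 genes (y axis) in CLP vs sham, CLP plus landiolol vs CLP and CLP plus landiolol vs sham, males in purple and females in orange, with 95% confidence intervals as lines and filled points for genes past the FDR. The filled points are both Adora3 in males, at 2.63 with CLP and -2.41 with landiolol, and the interval of Adora3 in females lies on the same side of 0 in those comparisons.

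Adora3 in males was near background in sham and landiolol-treated hearts and separated from both in CLP hearts. The 5 sham arrays read 3.42, 4.72, 3.58, 2.23 and 3.59, and only the array at 4.72 was well above background. The 5 CLP arrays read 6.05, 5.97, 5.77, 6.56 and 6.32, all well above background. The 6 landiolol arrays ran from 2.94 through a median of 3.63 to 4.62, and none was well above background. No array of the sham or landiolol groups reached the lowest CLP array, and sham and landiolol arrays overlapped.

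Adora3 in males rose with CLP by 2.63 (SE 0.38, adjusted p = 0.000292). With 4 of the 5 sham arrays not well above background, no fold is given, and the probe passed the filter through the CLP group alone; without the filter it was called as well. Within the slides it was 1.86 and 3.30. With landiolol it fell by 2.41 (SE 0.37, adjusted p = 0.00484; -2.08 and -2.84 within the slides). Because no landiolol array measured the probe above background, no measured fold is given. A floor was set for each landiolol array: its lowest intensity marked well above background, or the probe's own value where higher. Against that floor Adora3 was 4.54-fold lower than in CLP, with measured means of 3.72 and 6.13. This holds for this processing only and is not a minimum. Between CLP plus landiolol and sham the difference was 0.21 (95% confidence interval -0.57 to 0.99). The size of the change near background depended on the background correction: it was 0.88 and -0.84 with the normexp correction and 1.21 and -1.17 in the authors' table of normalised values, with the call kept in each.

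Adora3 in females also had its highest mean in CLP, with a wide spread there. The sham arrays read 4.50, 4.32, 4.47, 4.08 and 4.10, of which the array at 4.50 was well above background. The CLP arrays read 6.66, 3.70, 7.27, 5.37 and 5.0, and 4 of the 5 were well above background. The landiolol arrays ran from 2.06 through a median of 3.58 to 4.36, with 0 of 6 above background. The CLP array at 3.70, replicate 2, lay below every sham array, and the other 4 lay above every sham and every landiolol array.

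The change in females was 1.31 with CLP (SE 0.53, adjusted p = 0.146; 0.18 and 2.11 within the slides) and -2.15 with landiolol (SE 0.51, adjusted p = 0.135; -0.90 and -3.04 within the slides), and neither was called. The means were 5.60 in CLP and 3.45 in CLP plus landiolol. Against the same kind of floor the latter was 3.8-fold lower, again not a minimum. Over 8 alternatives the landiolol change ran from -2.29 to -0.71. Without replicate 2 the changes were 1.78 (adjusted p = 0.0249) and -2.62 (adjusted p = 0.0832). A term for the slide row gave -1.73 for landiolol (adjusted p = 0.748); all 6 female landiolol arrays lay on row 2 of the slides and all 5 female sham arrays on row 1. The difference between the sexes was 1.36 for CLP (SE 0.69, 95% confidence interval -0.05 to 2.77, adjusted p = 0.9999) and -0.31 for landiolol (SE 0.66, interval -1.66 to 1.04). No probe of 26492 passed the test of a difference between the sexes in either comparison, with an unadjusted p under 0.05 for 3.76% and 4.93% of them.

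**Figure D2:**
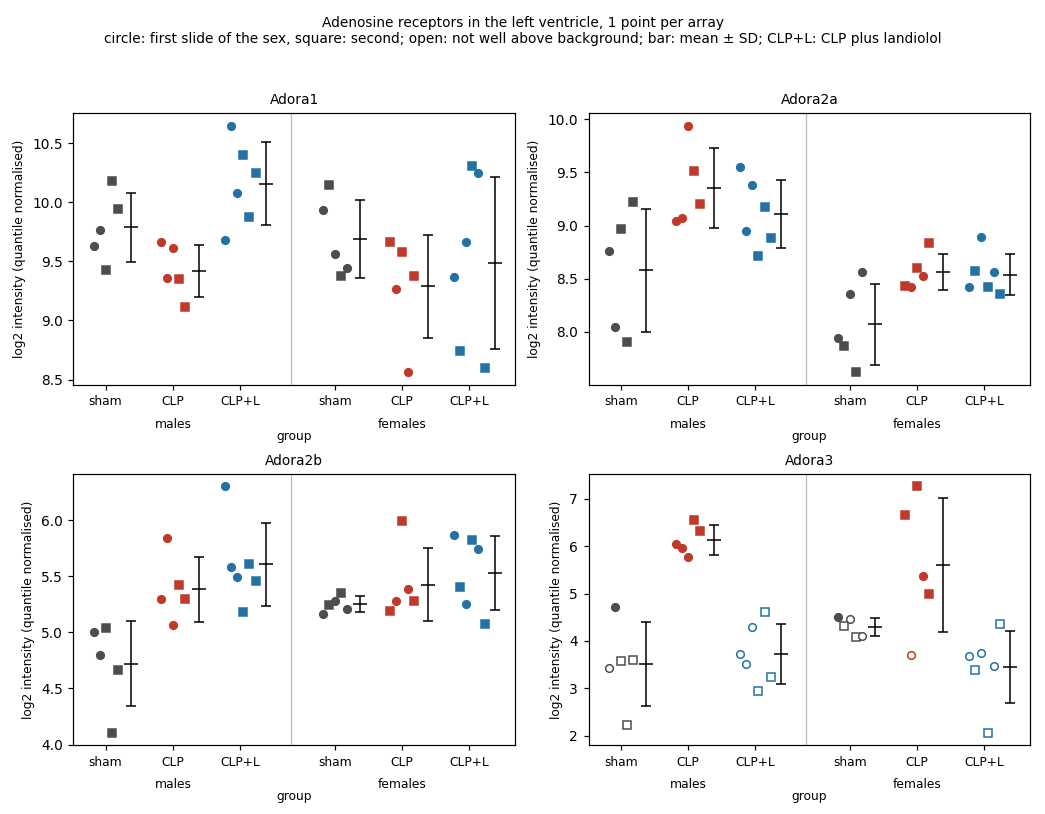
Log2 intensity (y axis) of the 4 adenosine receptors on each array, by group and sex (x axis), with mean ± SD beside the points; open points were not well above background, circles and squares are the slides of a sex. In the Adora3 panel the male CLP arrays sit between 5.77 and 6.56, above all male sham and landiolol arrays, while the female CLP arrays run from 3.70 to 7.27.

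Adora1 in males was highest on average under landiolol and lowest with CLP, without passing the FDR. The male sham arrays ran from 9.42 to 10.18, the CLP arrays read 9.66, 9.36, 9.61, 9.35 and 9.11, and the landiolol arrays ran from 9.68 through a median of 10.16 to 10.65. Every landiolol array lay above every CLP array, by 0.02 at the closest pair, and sham overlapped with both. The change was -0.37 with CLP (SE 0.19, adjusted p = 0.208) and 0.74 with landiolol (SE 0.18, adjusted p = 0.0511; 0.59 and 0.94 within the slides). The landiolol value lay at the edge of the 5% FDR: it passed with the normexp correction (adjusted p = 0.0412), with a trend in the variance prior (0.0420), and without CLP replicate 1 (0.0320), landiolol replicate 1 (0.0354) or landiolol replicate 5 (0.0480). The second Adora1 probe, above background on 9 of 16 male arrays, gave 0.51 (SE 0.49). In females Adora1 changed by -0.40 (SE 0.32) and 0.20 (SE 0.31), and the landiolol arrays alone spanned 8.60 to 10.30.

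The receptors that raise cyclic AMP were higher on average with CLP in both sexes, below the FDR. Adora2a changed by 0.77 in males (SE 0.26, adjusted p = 0.0542) and 0.49 in females (SE 0.17, adjusted p = 0.0883). Landiolol shifted it by -0.24 (95% confidence interval -0.77 to 0.28) and -0.03 (-0.38 to 0.32). In females the sham arrays read 7.95, 7.86, 8.35, 7.62 and 8.57 and the CLP arrays 8.43, 8.43, 8.60, 8.52 and 8.84, so that only the sham array at 8.57 reached into the CLP range.

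Adora2b in male sham hearts lay below both other groups without overlap. The male sham arrays read 5.01, 4.80, 5.04, 4.11 and 4.66, the CLP arrays 5.30, 5.84, 5.06, 5.42 and 5.30, and the landiolol arrays ran from 5.18 through a median of 5.54 to 6.30. All CLP and all landiolol arrays lay above all sham arrays; among all probes, 6.11% lay wholly above sham in male CLP and 4.23% in male CLP plus landiolol. The change was 0.66 with CLP (SE 0.21, adjusted p = 0.0468) and 0.88 in CLP plus landiolol vs sham (SE 0.21, adjusted p = 0.0126), both past 5% and short of the 1% used against sham. Without landiolol replicate 4 the second value passed 1% (adjusted p = 0.00966). These sizes shrank to 0.20 and 0.28 with the normexp correction. In females the changes were 0.17 (SE 0.18) and 0.28 (SE 0.17).

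Entpd1, which starts the breakdown of extracellular ATP, was higher with CLP on both of its probes, and its dimmer probe passed the FDR in males. On that probe the male sham arrays read 6.05, 6.11, 6.03, 5.74 and 6.35, the CLP arrays 6.79, 6.83, 6.98, 7.55 and 7.31, and the landiolol arrays ran from 6.14 through a median of 6.28 to 6.67. All CLP arrays lay above all sham arrays (6.11% of all probes did) and all landiolol arrays (1.09%), and sham and landiolol overlapped. It rose by 1.04 with CLP (SE 0.16, adjusted p = 0.000481) and fell by 0.76 with landiolol (SE 0.15, adjusted p = 0.0232), with 0.28 left between landiolol and sham (SE 0.15, adjusted p = 0.292). Within the slides the values were 0.79 and 1.39 for CLP and -0.54 and -1.10 for landiolol.

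On the brighter Entpd1 probe, at chr1:245889638-245889697 of rn4, the male change was 0.80 with CLP (SE 0.21, adjusted p = 0.0153) and -0.38 with landiolol (SE 0.20, adjusted p = 0.396), so both probes had the same direction and differed in the call. Counting a gene by any of its probes, a choice made after seeing the data, gave 2 genes called in males in each of these comparisons, Adora3 and Entpd1. Without sham replicate 1 the brighter probe passed 1% as well (adjusted p = 0.00874).

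In females the Entpd1 levels under landiolol lay near those of CLP. The brighter probe read 8.02, 8.30, 8.76, 8.92 and 8.51 in sham and 9.65, 8.61, 9.58, 9.37 and 9.54 in CLP, and it ran from 8.94 through a median of 9.22 to 9.61 in CLP plus landiolol. All landiolol arrays lay above all sham arrays (5.57% of all probes did), and in CLP only replicate 2, at 8.61, fell within the sham range. The change was 0.85 with CLP (SE 0.21, adjusted p = 0.0203) and 0.74 in CLP plus landiolol vs sham (SE 0.21, adjusted p = 0.0266), short of 1%, and -0.11 between landiolol and CLP (95% confidence interval -0.54 to 0.33). The female sham arrays all lay on slide row 1 and the landiolol arrays on row 2, so group and row go together there. Over 9 alternatives, the dimmer probe among them, the limma adjusted p of landiolol vs sham ran from 0.0181 to 0.684. Without CLP replicate 2 the CLP value was 1.03 and passed 1% (adjusted p = 0.00339). The dimmer probe gave 0.72 (SE 0.21, adjusted p = 0.0435), 0.54 (SE 0.20, adjusted p = 0.0959) and -0.18 (SE 0.20). The difference between the sexes in the landiolol response was -0.26 on the brighter probe (SE 0.29, unadjusted p = 0.371 by limma). On the dimmer probe it was -0.58 (SE 0.26, unadjusted p = 0.0307 and adjusted p = 0.968 by limma).

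Nt5e, which forms adenosine from AMP, was not called in either sex. The male sham arrays read 7.93, 8.58, 8.70, 8.47 and 8.52 and the CLP arrays 8.50, 9.21, 9.73, 9.69 and 9.07, with landiolol arrays from 7.98 through 8.47 to 9.11. CLP replicate 1, at 8.50, lay within the sham range, and the other 4 CLP arrays lay above all sham arrays. The change was 0.80 with CLP (SE 0.25, adjusted p = 0.0359) and -0.69 with landiolol (SE 0.24, adjusted p = 0.177). Without CLP replicate 1 both were called, at 0.99 (adjusted p = 0.00714) and -0.87 (adjusted p = 0.0375).

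In females Nt5e changed by 0.20 with CLP (SE 0.28) and 0.32 with landiolol (SE 0.27), and 5 of the 6 landiolol arrays lay between 8.95 and 9.43. The male minus female difference in the landiolol response was -1.0 (SE 0.37, 95% confidence interval -1.76 to -0.25), with an unadjusted limma p of 0.0106 and an adjusted p of 0.968. It was the lowest p of the 10 genes in that comparison.

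The enzymes that remove adenosine were not called. Ada, which deaminates it to inosine, was 0.41 higher with CLP in males (SE 0.16, adjusted p = 0.0927) and 0.45 in females (SE 0.21, adjusted p = 0.198), and stayed there under landiolol with differences from CLP of -0.01 and 0.01 (SE 0.15 and 0.20). Adk, which phosphorylates it to AMP, had wide groups, from 9.16 to 11.22 in male sham and from 9.76 to 11.87 in female CLP. It was lower with landiolol than with CLP by similar amounts, -0.84 in males (SE 0.37, adjusted p = 0.309) and -1.01 in females (SE 0.38, adjusted p = 0.383). The 6 female landiolol arrays lay between 9.54 and 10.41, and CLP replicates 1 and 5 of that sex, at 10.22 and 9.76, lay within that range while the others lay above it.

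The receptors for ATP were not called. P2rx4, an ATP-gated cation channel, changed by -0.18 and 0.04 with CLP in males and females (SE 0.19 and 0.25) and by -0.15 and 0.44 with landiolol (SE 0.18 and 0.24). P2ry2, a G protein-coupled receptor for ATP and UTP, changed by 0.09 and -0.14 with CLP and by -0.11 and -0.05 with landiolol. The 95% confidence intervals of P2ry2 reached at most 0.45 above 0 and 0.65 below 0 with CLP.

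**Figure D3:**
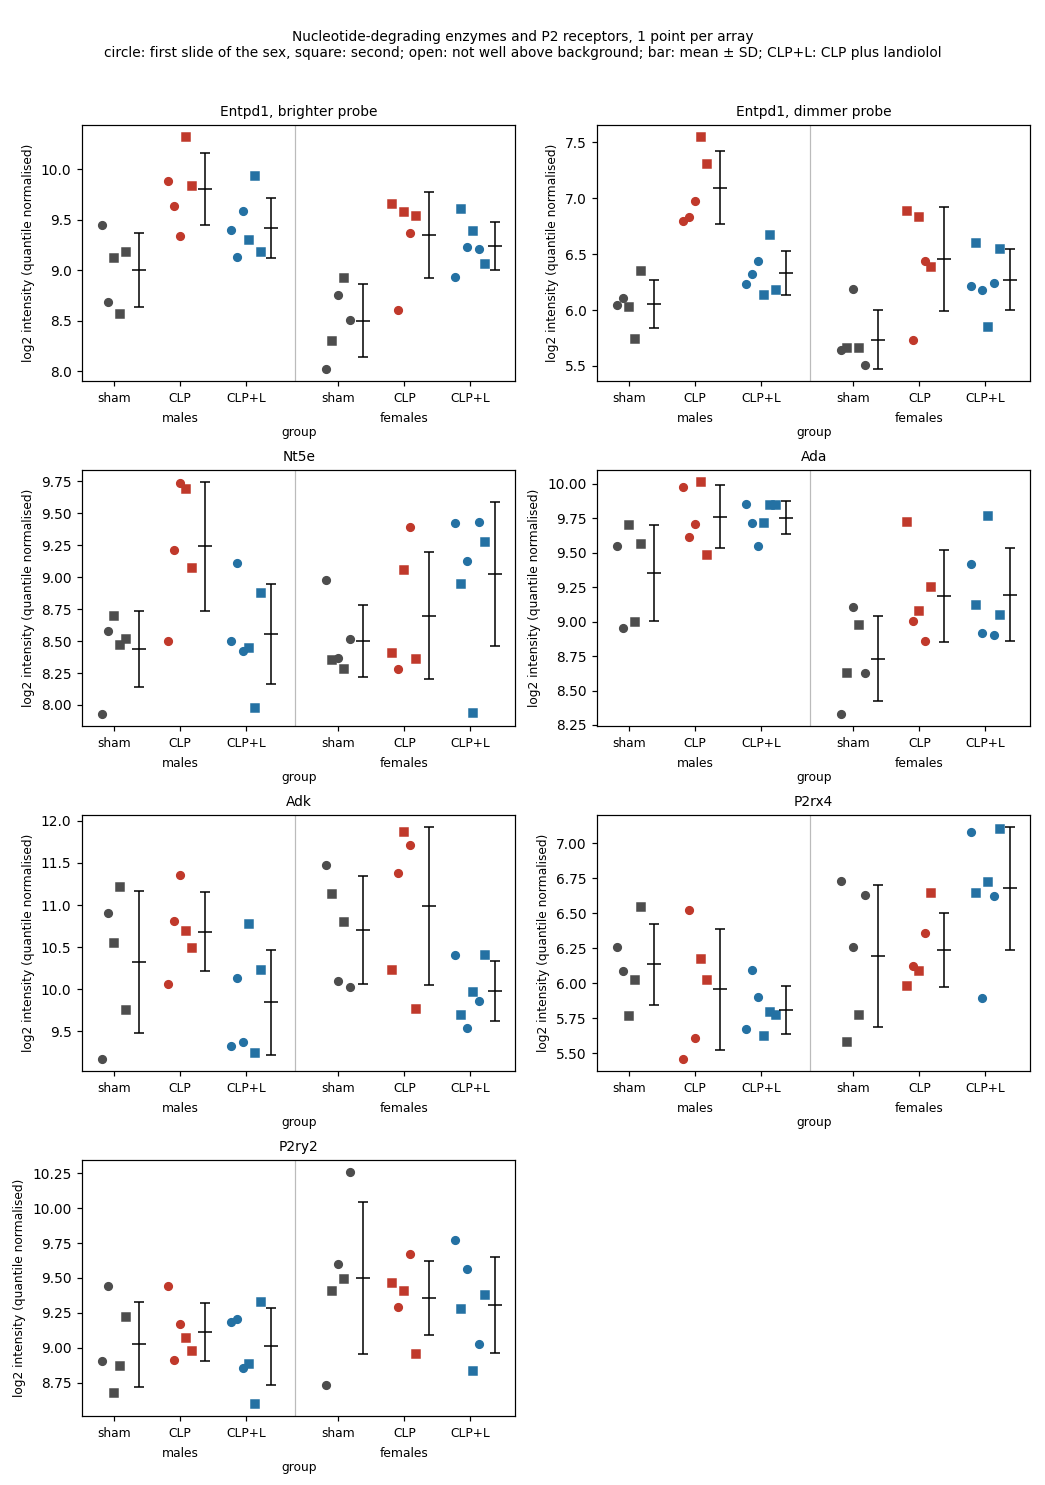
Log2 intensity (y axis) of both Entpd1 probes, Nt5e, Ada, Adk, P2rx4 and P2ry2 on each array, by group and sex (x axis), with mean ± SD beside the points and circles and squares for the slides of a sex. On the dimmer Entpd1 probe the male CLP arrays sit from 6.79 to 7.55, above all male sham and landiolol arrays, whereas the female landiolol arrays overlap with the CLP arrays on both Entpd1 probes.

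The rest of the pathway was read from lists of other P2 receptors, ectonucleotidases and phosphatases, intracellular nucleotidases and purine enzymes, and nucleoside transporters. Of the 41 genes of these lists that were kept, 5 were called higher and 5 lower with CLP in males, against 3.88% and 3.94% of all probes, and 1 higher and 1 lower in females, against 1.82% each way. Between CLP plus landiolol and CLP, 1 was called higher in males (0.804% of all probes) and 0 were called by limma in females (0.0945%). In females 8 of the 41 had an unadjusted p under 0.05 there, against 9.34% of all probes. Against sham, CLP plus landiolol had 4 genes called higher and 3 lower in each sex, against 2.4% and 1.76% of all probes in males and 3% and 2.24% in females. The count of 10 in males with CLP was 5 without sham replicate 2 and 6 without sham replicate 4 or 5 or CLP replicate 2, and the 7 in females under landiolol against sham were 4 without sham replicate 1 or 5 or any landiolol replicate but 4. The genes named here are those past the FDR, at most the 6 with the largest change in a comparison.

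Among 8 P2 receptors kept, P2ry6, a receptor for UDP, rose in males by 1.25 with CLP (SE 0.24, adjusted p = 0.00229). Its sham arrays read 8.88, 8.54, 8.83, 7.76 and 8.00 and its CLP arrays 9.16, 9.22, 9.65, 10.17 and 10.05, without overlap (6.11% of all probes lay wholly above sham). It was 1.78 above sham under landiolol (SE 0.23, adjusted p = 0.000192). In females, where sham spread from 8.14 to 9.76, P2ry6 changed by 0.31 with CLP.

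P2ry1, a receptor for ADP, fell in females by 1.28 with CLP (SE 0.21, adjusted p = 0.00125), from 7.85, 7.0, 6.89, 7.04 and 6.58 in sham to 5.84, 5.68, 5.94, 6.0 and 5.50. It was -1.13 from sham under landiolol (adjusted p = 0.00174), again with no overlap, though the share of all probes wholly below sham was not computed. In males it changed by -0.74 with CLP. The other 6 receptors kept were not called, and P2rx7 was above background on no array.

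Among 9 ectonucleotidases and phosphatases kept, Enpp3, which splits ATP to AMP and pyrophosphate, rose with CLP in both sexes. The male sham arrays read 11.70, 11.44, 10.69, 10.59 and 11.04 and the CLP arrays 12.50, 12.58, 12.40, 12.68 and 12.87. The female sham arrays read 10.11, 10.53, 11.01, 10.51 and 10.75 and the CLP arrays 12.81, 11.36, 12.10, 11.86 and 12.70. Neither pair of groups overlapped. In males 6.11% of all probes lay wholly above sham, and for CLP in females this share was not computed. The changes were 1.52 (SE 0.22, adjusted p = 0.000302) and 1.58 (SE 0.27, adjusted p = 0.00181). Landiolol changed Enpp3 by 0.05 and -0.25 against CLP. Enpp2, the enzyme that makes lysophosphatidic acid, fell by 1.09 in males with CLP (adjusted p = 0.00907), a call that held without CLP replicate 5 and was lost without any other of the 10 arrays. Alpl, an alkaline phosphatase, differed by -1.01 between CLP plus landiolol and sham in males (adjusted p = 0.00471). That call was lost without sham replicate 2, 4 or 5 or landiolol replicate 1 or 3.

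Among 18 intracellular enzymes kept, Ampd3, which deaminates AMP to IMP, rose by 1.30 with CLP in males (SE 0.23, adjusted p = 0.00127). It stood 1.65 above sham under landiolol in males (adjusted p = 0.000245) and 2.18 in females (adjusted p = 0.000686), with the groups apart in each case (4.23% and 5.57% of all probes lay wholly above sham). Xdh, which makes uric acid, was 1.08 above sham under landiolol in males (adjusted p = 0.00109). Ak1, which interconverts adenine nucleotides in muscle, was -0.88 from sham under landiolol in males (adjusted p = 0.00167) and -1.37 in females (adjusted p = 0.000532). Nt5m, a mitochondrial nucleotidase, fell by 1.20 with CLP in males (adjusted p = 0.00313), a call lost without sham replicate 2 or CLP replicate 4. Against sham in females, under landiolol, Hprt1 of purine salvage rose by 0.66 (adjusted p = 0.00642), a call that held without sham replicate 1, 2 or 4 or landiolol replicate 4 and was lost without any other array. Ahcy, which acts on S-adenosylhomocysteine to release adenosine, rose there by 0.52 (adjusted p = 0.00976), and its call was lost without any 1 of the 11 arrays. The female sham arrays all lay on slide row 1 and the landiolol arrays on row 2. With a term for the row, the female calls of these enzymes were lost.

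Slc29a1, the equilibrative transporter ENT1 through which adenosine is taken up, was lowest in CLP. In males the sham arrays read 12.11, 11.99, 12.05, 12.11 and 12.07, the CLP arrays 11.52, 11.46, 11.39, 10.82 and 10.92, and the landiolol arrays ran from 11.67 to 12.03. It fell by 0.84 with CLP (SE 0.14, adjusted p = 0.000687) and rose by 0.58 with landiolol (SE 0.13, adjusted p = 0.0367), and CLP overlapped with neither group. Of all probes, 1.18% lay wholly above CLP under landiolol, and the share wholly below sham was not computed. The landiolol call was lost in 4 of 11 alternatives (no filter, a term for the slide row, an FDR of 1% and a fit of the 2 groups alone). It held without CLP replicate 1 or 2 or landiolol replicate 5 and was lost without any other of the 11 arrays.

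In females the CLP arrays of Slc29a1 read 11.48, 11.28, 11.06, 11.18 and 11.41. The sham arrays ran from 11.50 to 11.87 and the landiolol arrays from 11.65 to 12.17. The changes were -0.42 (SE 0.13, adjusted p = 0.0511) and 0.59 (SE 0.12, adjusted p = 0.0866), short of the FDR. Slc28a1, a concentrative nucleoside transporter, was called lower with CLP in males (adjusted p = 0.00829). It was above background on 5 of 5 sham, 2 of 5 CLP and 2 of 6 landiolol arrays, so it passed the filter through the sham group alone, and its change of -1.29 is not a measured size. Its call was lost in 6 of 11 alternatives, among them no filter and the filter on all 16 arrays, and without 8 of the 10 arrays in turn, all but sham replicate 1 and CLP replicate 3.

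Of the calls on the pathway lists in males, those of Enpp3, Ampd3, Ak1 and Slc29a1 in CLP vs sham held in all 11 alternatives and without each array in turn. In females the pathway calls were all lost with a term for the slide row, under which 337 probes were called in CLP vs sham and 20 in CLP plus landiolol vs sham.

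**Figure D4:**
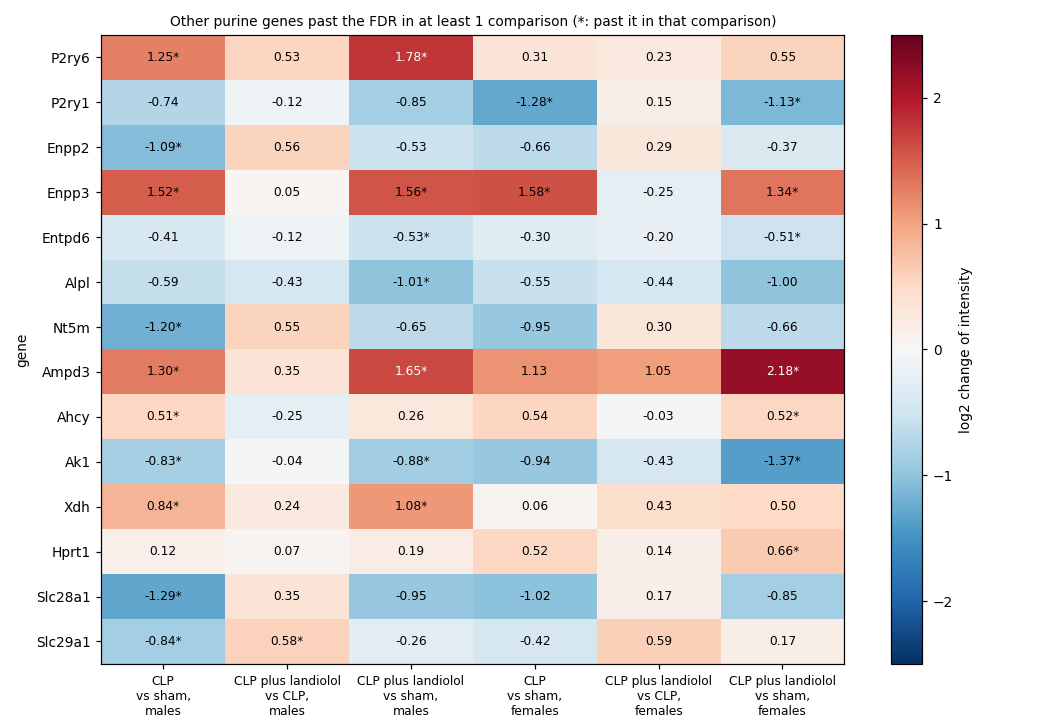
Log2 change of intensity (colour and printed value) of the 14 other purine genes past the FDR in at least 1 comparison (y axis) in the 6 comparisons (x axis), an asterisk marking a change past the FDR. Enpp3 is the gene marked with CLP in both sexes, Slc29a1 is the gene marked in CLP plus landiolol vs CLP, and Entpd6, outside the 6 largest changes, was added after its values were seen.

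By Pearson correlation over the 16 arrays of each sex, the 3 genes most like Adora3 among 13074 compared were Dlc1 (0.737 in males and 0.735 in females), Il6r, the interleukin-6 receptor (0.798 and 0.725), and Crem, a transcription factor regulated by cyclic AMP (0.841 and 0.724). The arrays of a sex share their slides and the group structure, so this is a description of likeness. Crem in males rose by 1.31 with CLP (SE 0.18, adjusted p = 0.000216) and fell by 1.35 with landiolol (SE 0.18, adjusted p = 0.00249). Its CLP arrays read 13.34, 12.72, 13.19, 13.14 and 12.96, above all sham and landiolol arrays. In females Crem changed by 0.73 with CLP (SE 0.31, adjusted p = 0.164). Its CLP arrays there ran from 12.41 to 13.24 and its landiolol arrays from 10.53 to 12.40 (-1.24, SE 0.30, adjusted p = 0.136). Il6r in males rose by 1.56 (SE 0.22, adjusted p = 0.000226) and fell by 1.38 (SE 0.21, adjusted p = 0.00484). Dlc1 in males changed by 0.49 and -0.39 and was not called. In females Il6r changed by 1.18 with CLP (adjusted p = 0.036) and -0.92 with landiolol (adjusted p = 0.341). Dlc1 changed there by 0.36 and -0.47, and neither gene was called in females.

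Some macrophage and neutrophil markers were called higher with CLP. Of 8 macrophage and monocyte markers, all kept, 4 were called higher with CLP in males (3.88% of all probes) and 3 in females (1.82%), and 0 by limma in CLP plus landiolol vs CLP, where 0 had an unadjusted p under 0.05 in either sex. Adgre1 had the largest change of the list, 2.79 in both sexes. The summed level of a list is the log2 of its summed linear intensities, so its brightest markers weigh most. For this list it ran from 13.56 to 14.03 in male sham, 14.96 to 15.52 in CLP and 14.56 to 15.50 in CLP plus landiolol. In females it ran from 14.02 to 14.48, from 15.01 to 15.68 and from 14.97 to 15.67. Of 8 neutrophil markers only S100a8 and S100a9 were kept, of which both were called higher with CLP in males and S100a8 in females. Among the 5 sham arrays of a sex, S100a8 was well above background on 0 in males and 1 in females. For S100a9 this was 3 and 2. Both markers passed the filter only through the CLP and landiolol groups, where they are high. Landiolol changed S100a8 by 1.06 and S100a9 by 1.22 against CLP in males (adjusted p = 0.250 and 0.220). Their summed level lay between 4.27 and 4.91 in male sham, between 6.67 and 9.58 in CLP and between 7.93 and 9.69 under landiolol. In females it lay between 3.72 and 5.52, between 7.08 and 8.67 and between 7.27 and 10.05. The defining markers Ngp and Mmp8 were above background on no array.

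Of 7 mast cell markers 6 were kept, and 1, Kit, was called, higher with CLP in males (0.78), where 3.88% of all probes were called higher. The median change of the 6 with CLP was -0.28 in males and -0.69 in females, and 3 of them had an unadjusted p under 0.05 in each sex (28.8% and 23.1% of all probes). In males these were Kit, Cpa3 at -0.93 and Cma1 at -0.68, and in females Cpa3 at -0.96, Cma1 at -1.17 and Tpsab1 at -0.84. The summed level of the mast cell list overlapped between all male groups: 10.71 to 11 in sham, 10.71 to 11.24 in CLP and 10.27 to 11.35 in CLP plus landiolol. In females it was 10.51 to 11.09, 10.23 to 10.88 and 10.20 to 11.20. The mast cell receptor subunit Ms4a2 was above background on no array. Under landiolol, Adora3 in males lay back in the sham range. The summed level of the macrophage list lay wholly above sham, as did that of the neutrophil markers, which passed the filter only outside sham. The part of these cells in the CLP values of Adora3 and Entpd1 was not tested.

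**Figure D5:**
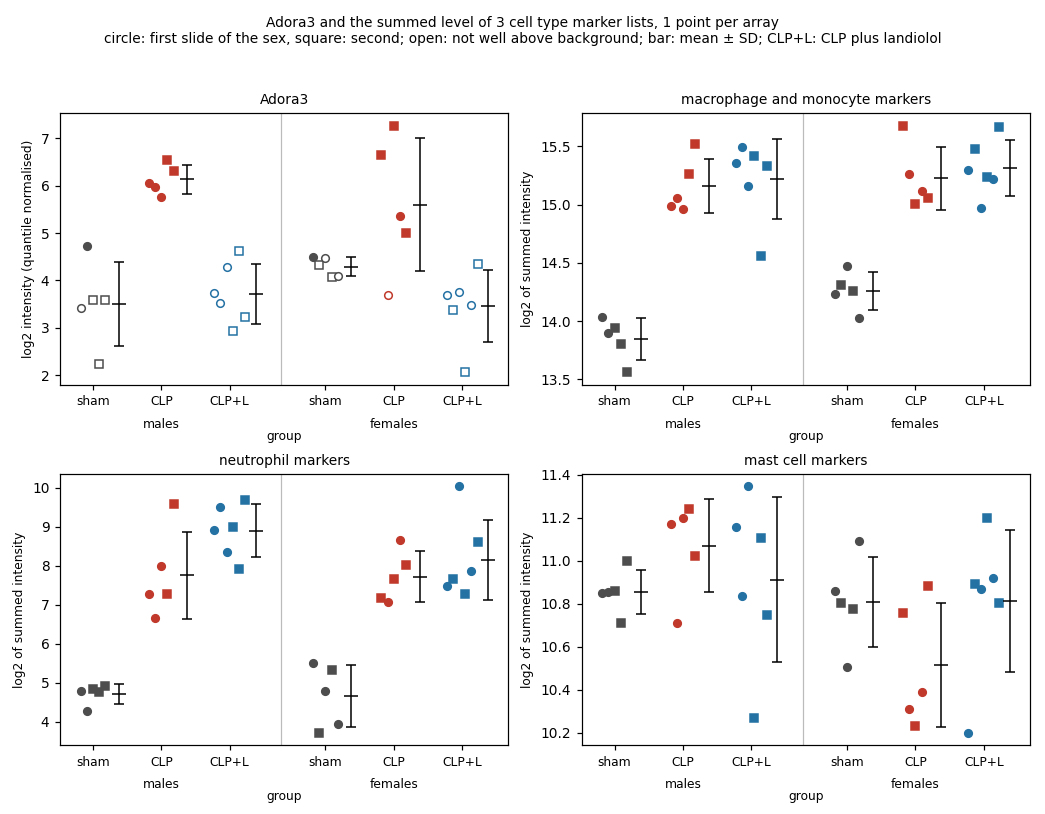
Log2 intensity of Adora3 and log2 of the summed intensity of the macrophage and monocyte, neutrophil and mast cell markers (y axes) on each array, by group and sex (x axis), with mean ± SD beside the points; open points in the Adora3 panel were not well above background. Macrophage and neutrophil sums stay above sham in every landiolol array, up to 15.50 and 9.69 in males, where Adora3 lies between 2.94 and 4.62. The neutrophil sum holds only S100a8 and S100a9, which passed the filter only through the CLP and landiolol groups.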

How the data were processed

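Total RNA of the left ventricle was labelled with Cy3 and hybridised to a SurePrint G3 rat array, 32 arrays on 4 slides, each sex on 2 slides of its own with every group on both. In females all 5 sham arrays lay on row 1 of the slides and all 6 landiolol arrays on row 2. The authors deposited scanner files of Agilent Feature Extraction 10.5, which give each spot a processed, a mean and a background intensity. A second deposited table holds log2 values that the authors had quantile-normalised and filtered on background; its column medians were 9.62 to 9.64 in males and 9.70 to 9.71 in females. Each column correlated best with its own array among the processed intensities (lowest Spearman correlation 0.995). An offset before log2 is not given in the sources used here, so that table served as an alternative only.

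Here, control spots and outlier spots were left out, processed intensities were converted to log2, repeat spots were averaged, and quantile normalisation was run on each sex's 16 arrays. A probe was kept if 80% or more of the arrays in some group marked it well above background (25866 probes in males, 25395 in females). Groups were compared with limma 3.58.1 in R 4.3.3 (lmFit and eBayes), with all 3 groups of a sex in the model and Benjamini-Hochberg adjustment; differences between the sexes came from a joint normalisation of the 32 arrays, with 5% as the FDR. The SAM test of the study's methods was not run. The scripts were tested on simulated data.

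The genes, the lists of pathway genes and of cell type markers, and the naming rule (all 10 genes, the 3 most alike genes of a called one, and the pathway genes past the FDR, at most 6 per comparison) were chosen with earlier results of these data known. Replicate numbers follow the order of the records and only name arrays. Alternatives were other scaling, background correction, filters, terms for slide or row, fits of the 2 groups alone, both sexes together, the authors' table, a trended prior, the other FDR, each array left out and any probe of a gene. Precision is limited by having 5 or 6 arrays in a group.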

Additional observations from a re-analysis of the deposited data

Results flagged for a closer look

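In 3 of 60 groups of arrays, 1 for each gene and group, the highest or lowest array stood apart from the rest by Dixon's test, and chance gives about 1 in 20. Adora2b of CLP replicate 3 in females read 5.99, with the next array at 5.39. Entpd1 of CLP replicate 2 in females read 8.61 on the brighter probe, with the next at 9.37; the same array was the lowest of its group for Adora3. Nt5e of CLP plus landiolol replicate 4 in females read 7.93, with the next at 8.95.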

How the results depend on the processing

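Of 192 recomputed counts of called genes, 176 stayed within 1.5 times the reported value. The reported counts were 0 or 1, so this means an unchanged count, for many of them 0 again. Of 1749 recomputed changes of single genes, 0 reversed a called direction and 0 lost a call where the gene was tested, 12 gained one, and 83 that were never called changed sign. Only Adora3 in males was called at the outset, with CLP and with landiolol, so only its recomputed values could lose a call. In CLP vs sham in males (1 gene), an FDR of 5% gave 4 genes, any probe of a gene gave 2, and the filter on all 16 arrays gave 0, since Adora3 was then not kept; leaving out each array gave 1 to 2. In CLP plus landiolol vs CLP in males (1 gene), the normexp correction, the trended prior and any probe each gave 2, and leaving out each array gave 1 to 3; the filter on all 16 arrays gave 1, Adora1 in place of Adora3. In CLP plus landiolol vs sham in males (0 genes), an FDR of 5% gave 1, Adora2b, and leaving out each array 0 to 1. In females (0 genes), an FDR of 5% gave 1 in CLP vs sham and 1 in CLP plus landiolol vs sham, Entpd1 both times, and leaving out each array gave 0 to 1 in CLP vs sham and 0 in the others. The tests of a difference between the sexes gave 0 throughout. Of the recomputed counts of pathway genes, 151 stayed within 1.5 times and 35 did not. Leaving out each array gave 5 to 10 in males for the 10 genes of CLP vs sham, 0 to 2 for the 1 gene called between landiolol and CLP, and in females 4 to 6 for the 7 called between landiolol and sham. Except where the construction shows it, the cause was not tested. Each rat gave 1 array in 1 group and the labels pair no rats, so no paired analysis was run. Signal near background limits Adora3, which was well above it on 1 of 5 sham arrays of each sex.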

Other observations

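The other marker lists had few calls. Of 5 fibroblast markers, 3 fell with CLP in males (Col1a1 by 2.11, Col1a2 by 1.34 and Lum by 1.89), where 3.94% of all probes were called lower. By limma 0 were called in the other comparisons, with an unadjusted p under 0.05 in 20 of 30 tests over all 6 comparisons. Of all probes, 9.34% to 28.8% had such a p, depending on the comparison. The comparisons of a sex share their arrays, so the tests pooled here and below are not independent. Of 6 endothelial markers 1 was called, Kdr, which was 0.87 higher in CLP plus landiolol than in sham in females (3% of all probes called higher). By limma, 0 of the 3 platelet markers kept and 0 of the 4 T, NK and B cell markers kept in males (3 in females) were called. An unadjusted p under 0.05 was found in 6 of 18 and 7 of 21 tests over the 6 comparisons, against the 9.34% to 28.8% of all probes given above.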
